A study of Homo sapiens with 12 samples.

Results

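The S100 genes encode small calcium-binding proteins, and 10 of them were followed here through RNA sequencing of 624Mel cells, a human melanoma cell line: S100B, S100A1, S100A2, S100A3, S100A4, S100A6, S100A10, S100A11, S100A13 and S100A16. They were taken by name from a table of 40173 Ensembl gene IDs, each member matching 1 ID. The cells received either a control siRNA (siCTRL) or an siRNA against MITF (siMITF), the transcription factor that keeps melanoma cells in a melanocytic state. After 24 h of transfection they were left untreated or given the cytokine IFNγ at 5 ng/mL for 24 h. The 4 conditions (siCTRL, siCTRL + IFNγ, siMITF and siMITF + IFNγ) held 3 libraries each, 12 in all. All came from 1 cell line and, per the methods, 1 siRNA against MITF, so an effect of that siRNA on other transcripts cannot be told apart from the loss of MITF. The study set out to learn how loss of MITF alters the response to IFNγ.

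S100 proteins bind calcium through paired EF-hand loops, form dimers, and on binding calcium expose a surface that holds partner proteins such as annexins, myosins and p53. Most of their genes lie in a cluster on the long arm of chromosome 1, while S100B lies on chromosome 21. In melanoma, S100 staining of tissue marks cells of the melanocytic and neural crest lineages, and S100B in serum is used as a marker of tumor burden. S100A10 is an exception within the family because it no longer binds calcium and stays in a complex with annexin A2.

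Values are TPM, relative transcript abundances that are corrected for transcript length and can be compared between genes. MITF itself stood at 187, 229 and 217 TPM in the siCTRL libraries and at 36.0, 49.7 and 41.7 TPM in the siMITF libraries, and it was lower with siMITF by 2.29 on the log2 scale without IFNγ and by 2.14 with it. All 7 melanocytic genes checked were lower with siMITF and all 6 IFNγ response genes checked rose with IFNγ in both backgrounds, each rise being at least 2-fold. Summed markers of other cell types stayed low: fibroblast markers reached 2.70 to 8.76 TPM over 5 genes, leukocyte markers 1.68 to 5.53 TPM over 5 genes and endothelial markers at most 0.800 TPM over 3 genes. The 5 keratinocyte markers summed to 38.9 to 60.8 TPM, nearly all of it KRT10, with KRT1 listed at 0 in all libraries. LYZ made up most of the leukocyte sum and LUM most of the fibroblast sum, with CD3E listed at 0 throughout (these marker genes were singled out after their values were seen). Both sums moved with the conditions: the leukocyte sum was 2.77 to 3.06 TPM in siCTRL, 1.68 to 2.15 TPM with IFNγ added, 4.55 to 5.53 TPM in siMITF and 3.65 to 4.07 TPM with both, and the fibroblast sum was 5.32 to 6.74, 2.70 to 3.9, 7.48 to 8.76 and 4.99 to 5.95 TPM in that order. The part of such low signals in the S100 values was not tested. Mitochondrial transcripts took 7.42 to 16.9% of TPM, with replicate 2 lowest in each condition. Read depth is unknown from TPM, and in bulk RNA a change in the share of cells cannot be told apart from a change in RNA per cell.

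In untreated siCTRL cells the members spanned a wide range of levels. S100A11 led with 350 ± 15.3 TPM (SD, n = 3), 43.5% of the TPM of the 10 genes. S100A10 followed at 121 ± 0.614 TPM, then S100A13 at 91.8 ± 5.21 TPM, S100A1 at 90.2 ± 1.03 TPM and S100B at 81.8 ± 4.13 TPM. S100A16 stood at 63.1 ± 1.81 TPM, whereas S100A4 (4.39 ± 0.895 TPM), S100A2 (2.10 ± 0.0647 TPM) and S100A3 (0.564 ± 0.167 TPM) were low. Only the neighbours S100A13 and S100A1 overlapped in this order. S100A6 was listed at or near 0 throughout.

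**Figure D1:**
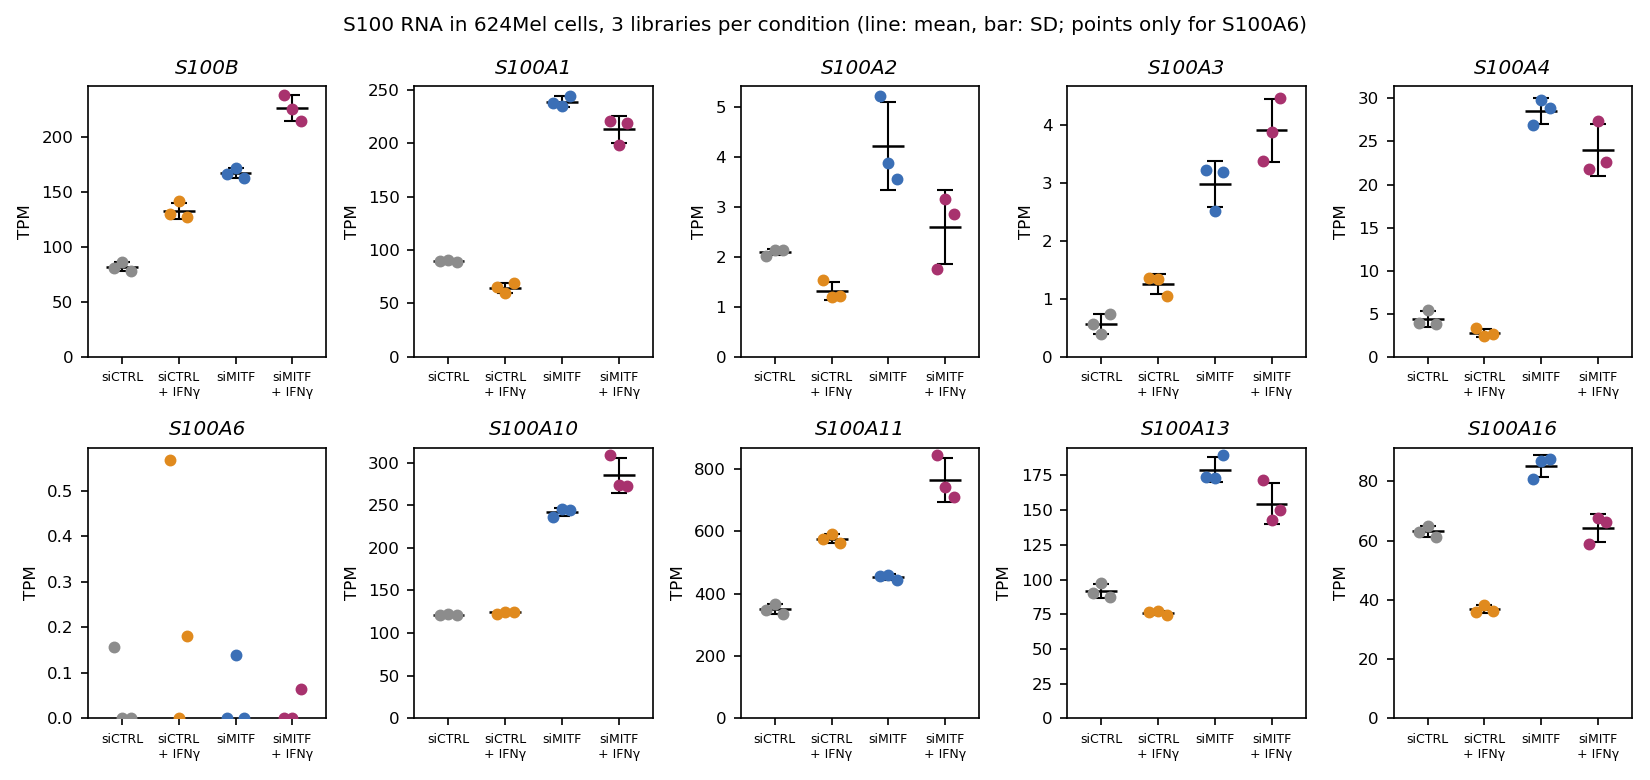
TPM of the 10 S100 genes in each library (points) with the mean (line) and SD (bar) of the 3 libraries per condition; each panel has its own axis from 0, and S100A6 is shown as points only. Every siMITF library lies above every siCTRL library of the same IFNγ state for the 9 genes other than S100A6, whose highest value is 0.567 TPM; such separation was seen for 33.0% of all tested IDs without IFNγ and 21.3% with it.

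The first question was what loss of MITF does to these genes without IFNγ. All 9 S100 genes that could be tested were higher in siMITF cells (limma on log2(TPM + 1), adjusted p under 0.05), and none was lower. Over all 12773 tested IDs, 21.0% were called higher and 13.8% lower. In a fit blocked on replicate number those shares were 28.8% and 18.9%. S100A6 was too low to be tested, and S100A3 entered the test only through its level in the siMITF conditions, so it is set apart: the other 8 were all higher, with a median log2 fold change of 0.97 against 0.06 over all tested IDs. The log2 fold changes are of TPM + 1, which understates the change of the low genes.

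S100A4, which binds non-muscle myosin IIA and is known for its link to cell motility and metastasis, had the largest difference. It measured 3.92, 5.43 and 3.83 TPM in siCTRL libraries and 26.9, 29.9 and 28.9 TPM in siMITF libraries. The groups lay far apart, the ratio of the means being 6.50 (log2 fold change 2.47 ± 0.13 SE, adjusted p = 3.49e-08). S100A1, known best from heart muscle where it acts on calcium release, measured 90.3, 91.2 and 89.1 TPM against 238, 235 and 245 TPM. Its control libraries were nearly level, and its log2 fold change was 1.40 ± 0.07 SE (adjusted p = 1.55e-08).

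S100B, the family member measured in the blood of melanoma patients, rose from 80.7, 86.4 and 78.4 TPM to 166.5, 172 and 163 TPM. This was a ratio of 2.04 with no overlap (log2 fold change 1.02 ± 0.07 SE, adjusted p = 2.22e-07). S100A3, a cysteine-rich member best known from the hair cuticle, measured 0.564, 0.398 and 0.732 TPM with siCTRL and 3.22, 2.52 and 3.20 TPM with siMITF. Its log2 fold change of 1.35 ± 0.13 SE (adjusted p = 4.87e-06) also passed 2-fold, but is left out of the count because of how it entered the test. Of the other 8, 3 (S100A4, S100A1 and S100B) reached 2-fold in TPM + 1, as 3.26% of all tested IDs did upward. S100B fell below that limit with each library centred on its median (0.987) and without siCTRL replicate 3 (0.991). S100A10 and S100A13 came just short of it.

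S100A10, the annexin A2 partner, moved from 121, 122 and 121 TPM to 237, 246 and 244 TPM. Its ratio of means was 1.997 and its log2 fold change 0.99 ± 0.06 SE (adjusted p = 1.12e-07). S100A13, which takes part in the release of fibroblast growth factor from cells, moved from 90.3, 97.6 and 87.5 TPM to 174, 173.5 and 189 TPM. Its log2 fold change was 0.96 ± 0.08 SE (adjusted p = 1.22e-06). Both genes thus lay close to 2-fold with narrow replicate spread, and neither had overlapping libraries.

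The remaining 3 tested members had smaller log2 fold changes of TPM + 1. S100A2, found in the nucleus and known to bind p53, was 2.03, 2.13 and 2.15 TPM with siCTRL and 5.21, 3.88 and 3.57 TPM with siMITF (log2 fold change 0.74 ± 0.16 SE, adjusted p = 0.00315), a ratio of means of 2.01, with replicate 1 well above the other siMITF libraries. S100A16 measured 63.0, 65.0 and 61.3 TPM against 80.9, 87.0 and 87.4 TPM, a log2 fold change of 0.43 ± 0.07 SE (adjusted p = 6.23e-04). S100A11, an annexin A1 partner, measured 348, 366 and 336 TPM against 456, 460.2 and 443 TPM, a log2 fold change of 0.37 ± 0.07 SE (adjusted p = 0.0011). The most abundant member was therefore the one with the smallest relative difference, by the ratio of means (1.29) as by the log2 fold change.

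With IFNγ present in both arms, siMITF again gave higher RNA of all 9 tested members, S100A3 included, where 18.4% of all tested IDs were called higher and 14.7% lower. Without siCTRL + IFNγ replicate 1 that balance turned, with 1848 IDs called higher and 2409 lower. In the blocked fit of all libraries, 25.3% of tested IDs were called higher and 21% lower. Without S100A3 the median log2 fold change was 0.90, against 0.03 over all tested IDs. Leaving S100A3 (1.12 ± 0.13 SE, adjusted p = 2.72e-05) aside, 4 of the 8 passed 2-fold, as did 3.16% of tested IDs: S100A4 (2.72 ± 0.13 SE, adjusted p = 1.84e-08), S100A1 (1.70 ± 0.07 SE, adjusted p = 4.52e-09), S100A10 (1.19 ± 0.06 SE, adjusted p = 2.73e-08) and S100A13 (1.01 ± 0.08 SE, adjusted p = 8.37e-07), the last just above the limit. S100A16 had a log2 fold change of 0.79 ± 0.07 SE, S100B of 0.77 ± 0.07 SE, S100A2 of 0.61 ± 0.16 SE (adjusted p = 0.0103) and S100A11 of 0.41 ± 0.07 SE (adjusted p = 6.08e-04). These 2 comparisons use different libraries. S100A4 had the largest ratio of mean TPM in both (6.50 and 8.57), whereas the place of S100A1 depended on the pseudocount: without IFNγ its ratio was 2.65 and that of S100A3 5.28.

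**Figure D2:**
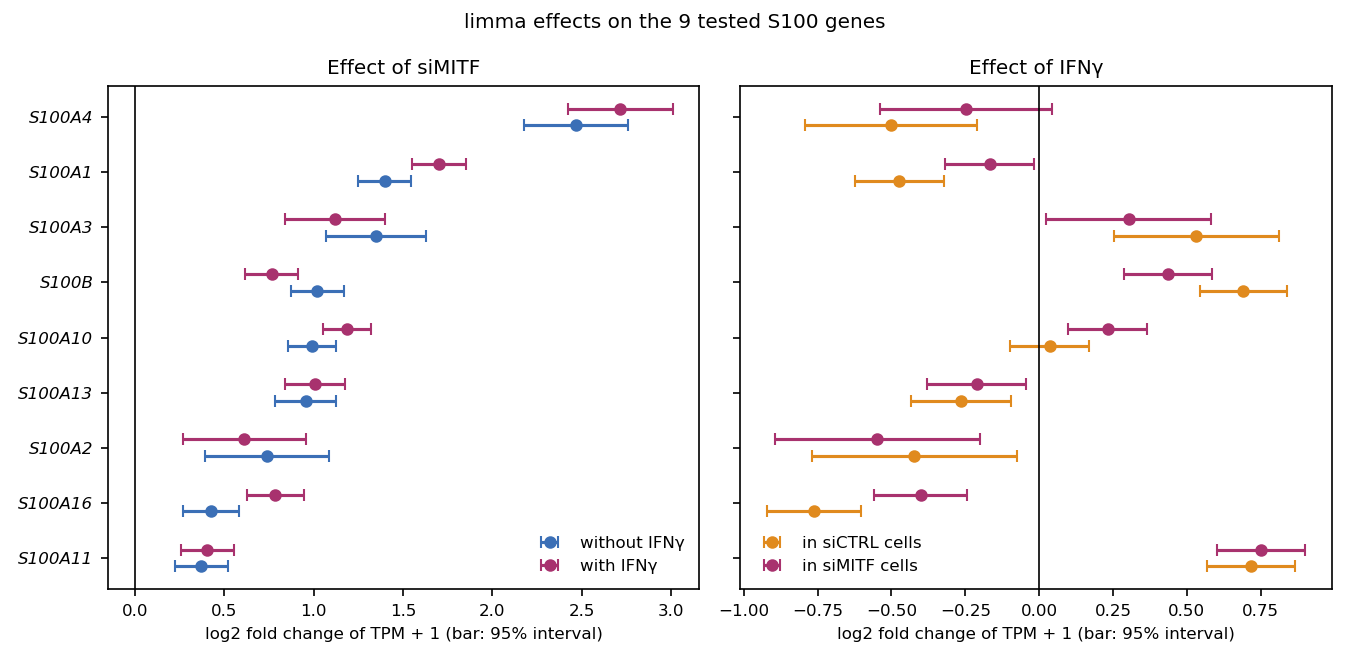
Log2 fold changes of TPM + 1 for the 9 tested S100 genes from limma, with 95% intervals as bars; the left panel gives siMITF against siCTRL without (blue) and with (magenta) IFNγ, the right panel IFNγ against no IFNγ in siCTRL (orange) and siMITF (magenta) cells. All siMITF intervals lie above 0, whereas the IFNγ values run from -0.76 for S100A16 to 0.75 for S100A11.

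The second question was how IFNγ acts on the family in cells with MITF. Here the members divided: in siCTRL cells 3 of the 9 tested rose (S100A11, S100B and S100A3) and 4 fell (S100A16, S100A4, S100A1 and S100A13), none by 2-fold in TPM + 1, although the ratio of the mean TPM of S100A3 was 2.23. Without S100A3 the counts were 2 and 4 of 8. Of all tested IDs, 6.80% were called higher and 6.14% lower. The 784 IDs called lower became 286 to 507 when 1 library was left out, namely siCTRL replicate 1 (507), 2 (286) or 3 (458) or siCTRL + IFNγ replicate 1 (385) or 3 (372). They rose to 1144, with 688 called higher, without siCTRL + IFNγ replicate 2, and to 1074 without siMITF + IFNγ replicate 1. The all-gene split of 52.5% higher among the calls became 41.7% under quantile normalization, and in the fit blocked on replicate number 9.67% of tested IDs were called higher and 16% lower. The median log2 fold change of these 8 was -0.34, and -0.07 over all tested IDs.

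S100A11 rose from 348, 366 and 336 TPM to 575, 590.3 and 562 TPM, with no overlap and a ratio of 1.64 (log2 fold change 0.72 ± 0.07 SE, adjusted p = 9.75e-06). Of all tested IDs, 11.7% had every siCTRL + IFNγ library above every siCTRL library, and 18.1% had every one below. S100B rose from 80.7, 86.4 and 78.4 TPM to 130.1, 141 and 127 TPM (log2 fold change 0.69 ± 0.07 SE, adjusted p = 1.36e-05). With this rise S100B passed S100A10, S100A13 and S100A1 to become the second most abundant member, at 133 ± 7.63 TPM. S100A16, a widely expressed member with a known role in fat cell differentiation, fell from 63.0, 65.0 and 61.3 TPM to 35.8, 38.4 and 36.2 TPM (log2 fold change -0.76 ± 0.07 SE, adjusted p = 9.51e-06). S100A1 fell from about 90.2 TPM on average to 65.9, 59.6 and 69.0 TPM (log2 fold change -0.47 ± 0.07 SE, adjusted p = 5.18e-04). These 4 calls held under every alternative tried, including each library left out in turn.

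The other IFNγ values in siCTRL cells were less firm. S100A4 went from 3.92, 5.43 and 3.83 TPM to 3.33, 2.45 and 2.62 TPM (log2 fold change -0.50 ± 0.13 SE, adjusted p = 0.0283). The call was lost without siCTRL replicate 2 (adjusted p = 0.12), without siCTRL + IFNγ replicate 2 (0.0728), without siCTRL + IFNγ replicate 3 (0.0984), with no filter on low values (0.072) and with only the conditions compared in the fit (0.0815). S100A3 went from 0.564, 0.398 and 0.732 TPM to 1.37, 1.35 and 1.05 TPM (log2 fold change 0.53 ± 0.13 SE, adjusted p = 0.0167), and its call was lost without siCTRL replicate 1 (adjusted p = 0.0506), siCTRL replicate 2 (0.0781) or siCTRL + IFNγ replicate 1 (0.0562) and under quantile normalization (0.278). Its means in both conditions lay under the filter of 2 TPM, so it was not tested with only the conditions compared in the fit. S100A13 went from 90.3, 97.6 and 87.5 TPM to 76.9, 77.2 and 74.5 TPM (log2 fold change -0.26 ± 0.08 SE, adjusted p = 0.0431), a call lost in 17 of 25 alternatives, among them each siCTRL and each siCTRL + IFNγ library left out (adjusted p up to 0.165).

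S100A2 measured 1.53, 1.204 and 1.21 TPM with IFNγ, below every untreated siCTRL library, as were 18.1% of all tested IDs. It was not called (log2 fold change -0.42 ± 0.16 SE, adjusted p = 0.11), except under quantile normalization (0.0276) or without siMITF + IFNγ replicate 1 (0.0397). S100A10 measured 123, 125 and 125 TPM with IFNγ against 121, 122 and 121 TPM without. Its log2 fold change was 0.03 ± 0.06 SE (adjusted p = 0.779), with a 95% interval from -0.10 to 0.17. The gene whose mean was 1.997 times higher with siMITF thus differed with IFNγ by a value whose interval ended at 0.17 on the log2 scale.

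In siMITF cells IFNγ gave 3 members called higher (S100A11, S100B and S100A10) and 2 called lower (S100A16 and S100A2), against 7.99% and 12.2% of all tested IDs. In the blocked fit those shares were 11.2% and 24.5%. The 1554 IDs called lower became 934, 768 and 1011 without siMITF replicate 1, 2 and 3. S100A11 rose from 456, 460.2 and 443 TPM to 843, 742 and 709 TPM (log2 fold change 0.75 ± 0.07 SE, adjusted p = 5.47e-06). S100B rose from 166.5, 172 and 163 TPM to 238.5, 225 and 215 TPM (log2 fold change 0.44 ± 0.07 SE, adjusted p = 6.73e-04). S100A16 fell from 80.9, 87.0 and 87.4 TPM to 58.9, 67.5 and 66.4 TPM (log2 fold change -0.40 ± 0.07 SE, adjusted p = 0.0019). None of these groups overlapped. Such separation was seen upward for 12.1% and downward for 28.4% of all tested IDs.

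S100A10 went from 237, 246 and 244 TPM to 308, 274 and 273 TPM in siMITF cells, replicate 1 with IFNγ standing above the rest (log2 fold change 0.23 ± 0.06 SE, adjusted p = 0.0186). The call was lost without any 1 of the siMITF libraries (adjusted p = 0.0789, 0.055 and 0.0541 for replicates 1, 2 and 3) or without siMITF + IFNγ replicate 1 (0.0526). It was also lost with each library centred on its median (0.0623) and with only the conditions compared in the fit (0.0554). S100A2 went from 5.21, 3.88 and 3.57 TPM to 1.76, 3.17 and 2.85 TPM (log2 fold change -0.55 ± 0.16 SE, adjusted p = 0.029). That call was lost without siMITF replicate 1 (adjusted p = 0.124), siMITF replicate 2 (0.0601) or siMITF + IFNγ replicate 1 (0.0955), with no filter on low values (0.0838) and with only the conditions compared (0.0867).

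S100A1 measured 221, 199 and 220 TPM with IFNγ in siMITF cells and S100A13 171, 143 and 149.8 TPM, all below the siMITF libraries without IFNγ, as was seen for 28.4% of all tested IDs. Neither was called (S100A1 log2 fold change -0.17 ± 0.07 SE, adjusted p = 0.11; S100A13 -0.21 ± 0.08 SE, adjusted p = 0.0758), but both were in the blocked fit (adjusted p = 0.0365 and 0.0399), and S100A13 also without siMITF + IFNγ replicate 1 (0.0164). S100A4 measured 21.9, 27.4 and 22.7 TPM and overlapped the untreated siMITF libraries (log2 fold change -0.25 ± 0.13 SE, adjusted p = 0.215). S100A3 measured 3.39, 3.88 and 4.47 TPM (log2 fold change 0.30 ± 0.13 SE, adjusted p = 0.119).

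Whether the IFNγ effect differed between siMITF and siCTRL cells was tested as the interaction. None of the 9 members was called, against 0.947% of all tested IDs (1.37% higher and 0.791% lower in the blocked fit, and with 1 library left out as few as 52 IDs higher and 16 lower in place of 90 and 31), although 4 of the 9 had an unadjusted limma p under 0.05, as did 7.67% of all tested IDs. These were S100A16 (interaction 0.36 ± 0.10 SE on the log2 scale, adjusted p = 0.194), S100A1 (0.30 ± 0.10 SE, adjusted p = 0.307), S100B (-0.26 ± 0.10 SE, adjusted p = 0.463) and S100A10 (0.20 ± 0.09 SE, adjusted p = 0.62). The S100A16 interaction, which is a smaller fall with IFNγ in siMITF cells, was called with the replicate block (adjusted p = 0.0419), with mitochondrial genes removed (0.0369) and under quantile normalization (0.04), and ran up to an adjusted p of 0.499 over the alternatives. For S100A11 the interaction was 0.03 ± 0.10 SE, with a 95% interval from -0.18 to 0.24.

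Cells with both treatments were also set against untreated siCTRL cells, a comparison that shares its libraries with those above. Leaving S100A3 aside, 6 of the 8 were higher, 5 of them at least 2-fold, and none was lower. Of all tested IDs 21.1% were higher, 5.65% at least 2-fold higher and 23.4% lower. S100A4 (log2 fold change 2.22 ± 0.13 SE), S100B (1.46 ± 0.07 SE), S100A1 (1.23 ± 0.07 SE), S100A10 (1.22 ± 0.06 SE) and S100A11 (1.12 ± 0.07 SE) passed 2-fold, S100A13 had 0.74 ± 0.08 SE, and S100A3 had 1.65 ± 0.13 SE. S100B and S100A11, which were higher with each treatment alone, reached 226 ± 11.7 TPM and 765 ± 70.0 TPM, 2.77 and 2.18 times their untreated means.

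S100A16 ended where it began. Its libraries with both treatments, at 58.9, 67.5 and 66.4 TPM, overlapped the untreated ones at 63.0, 65.0 and 61.3 TPM. The log2 fold change was 0.02 ± 0.07 SE (adjusted p = 0.815), with a 95% interval from -0.13 to 0.18. S100A2 likewise overlapped, at 1.76, 3.17 and 2.85 TPM against 2.03, 2.13 and 2.15 TPM (log2 fold change 0.19 ± 0.16 SE, adjusted p = 0.357), but with a wider 95% interval from -0.16 to 0.54. Without siMITF + IFNγ replicate 1, the lowest library, S100A2 was called higher (log2 fold change 0.37, adjusted p = 0.0494).

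The order of levels within the family shifted with these effects. S100A11 stayed first in each condition and held 43.5, 56.7, 32.3 and 44% of the members' TPM in siCTRL, siCTRL + IFNγ, siMITF and siMITF + IFNγ cells. S100A1 moved from rank 4 in siCTRL to rank 3 in siMITF cells, where its libraries overlapped those of S100A10 at rank 2. S100B had rank 5 in both conditions without IFNγ, rank 2 in siCTRL + IFNγ and rank 3 in siMITF + IFNγ cells, where it overlapped S100A1. S100A2 and S100A3 overlapped in siCTRL + IFNγ cells, and S100A3 lay above S100A2 only in siMITF + IFNγ cells.

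Pairs of members moved against each other within libraries. The ratio of S100B to S100A1 was 0.907 ± 0.0359 (SD, n = 3) in siCTRL, 2.06 ± 0.277 with IFNγ added, 0.699 ± 0.0321 in siMITF cells and 1.06 ± 0.0779 in siMITF cells with IFNγ. The ratio of S100A10 to S100A11 was 0.347 ± 0.0133, 0.216 ± 0.00504, 0.535 ± 0.0160 and 0.373 ± 0.00991 in the same order. S100B thus gained on S100A1 with IFNγ and lost with siMITF, whereas S100A10 gained on S100A11 with siMITF and lost with IFNγ.

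Summed over the 10 genes, S100 RNA measured 805 ± 28.7 TPM in siCTRL, 1016 ± 19.5 TPM with IFNγ added, 1401 ± 12.3 TPM in siMITF cells and 1739 ± 113 TPM in siMITF cells with IFNγ. The sum was 1.74 times higher with siMITF without IFNγ and 1.71 times higher with it. IFNγ raised the mean sum by a ratio of 1.26 in siCTRL and 1.24 in siMITF cells. Much of this lay in S100A11, whose mean went from 350 to 576 TPM in siCTRL and from 453 to 765 TPM in siMITF cells. S100B, S100A10 and S100A3 also had higher means with IFNγ in both backgrounds. S100A1, S100A2, S100A4, S100A13 and S100A16 had lower means with it in both, so the sum does not describe each member. In all 4 comparisons the libraries did not overlap, and the exact two-sided permutation p was 0.1, the smallest that 3 against 3 libraries can give. The highest sum, 1868 TPM, was in siMITF + IFNγ replicate 1.

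**Figure D3:**
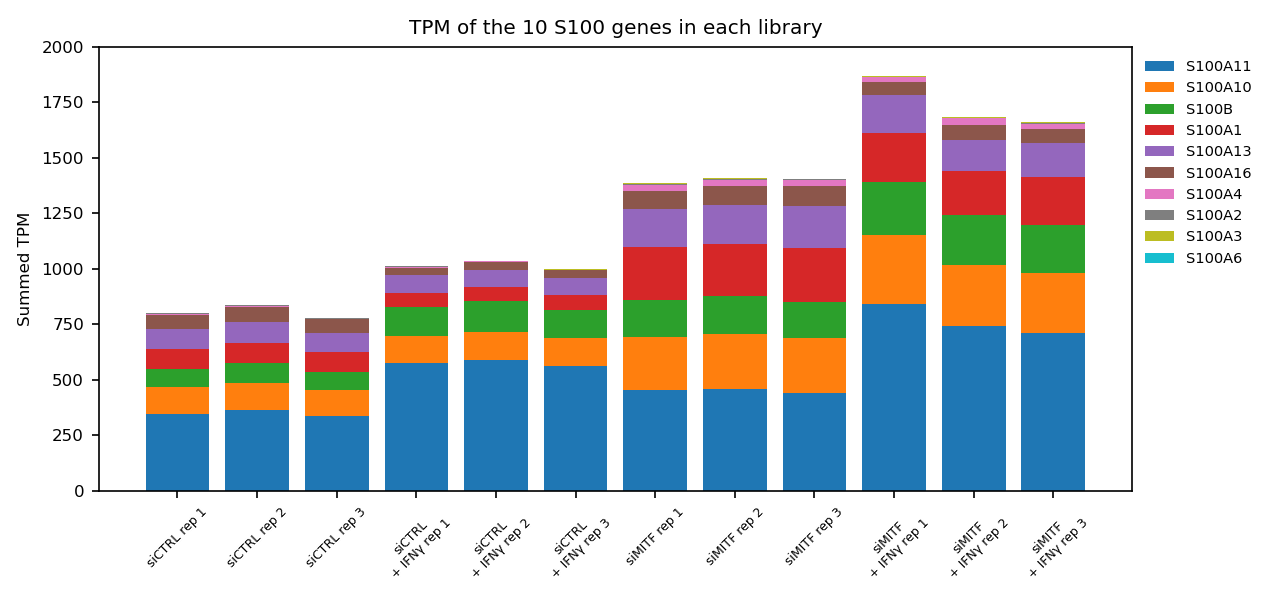
TPM of the 10 S100 genes stacked for each of the 12 libraries, with the vertical axis from 0. The sums run from 779 TPM in siCTRL replicate 3 to 1868 TPM in siMITF + IFNγ replicate 1, and S100A11 is the largest block in every library.

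S100A6, also called calcyclin, was listed at 0 in 7 of the 12 libraries. Its other values were 0.156 TPM in siCTRL replicate 1, 0.567 and 0.182 TPM in siCTRL + IFNγ replicates 1 and 3, 0.140 TPM in siMITF replicate 2 and 0.0651 TPM in siMITF + IFNγ replicate 3. No condition stood apart, and no fold change is given. The gene (chromosome 1, 153534599 to 153536244, minus strand, GRCh38) lies next to S100A5, with S100A4 beyond it on the same strand. S100A4 (chromosome 1, 153543613 to 153550136) reached 29.9 TPM in siMITF replicate 2, where S100A6 was 0.140 TPM.

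Expression along chromosome 1 was patchy in the same way. S100A10 and S100A11 lie at one end of the cluster (151982915 to 151993859 and 152032506 to 152047907, both minus strand) and were the most abundant. The genes between S100A11 and S100A4 were near 0 apart from S100A8 and S100A9 in 1 library, and S100A2, S100A3 and S100A4 were low to moderate. S100A16, S100A13 and S100A1 (153627926 to 153632039, plus strand) at the other end were abundant again, with S100A14 among them at 0.265 TPM or less. Of the 11 other S100 genes only S100A9 passed the filter, through siCTRL + IFNγ replicate 1 at 5.74 TPM, where S100A8, its dimer partner in myeloid cells, also reached 4.25 TPM. In the other 11 libraries S100A9 was at most 0.879 TPM and S100A8 at most 0.701 TPM, and S100A9 was called in no comparison. S100A7, S100A7L2 and S100Z were listed at 0 in all libraries.

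**Figure D4:**
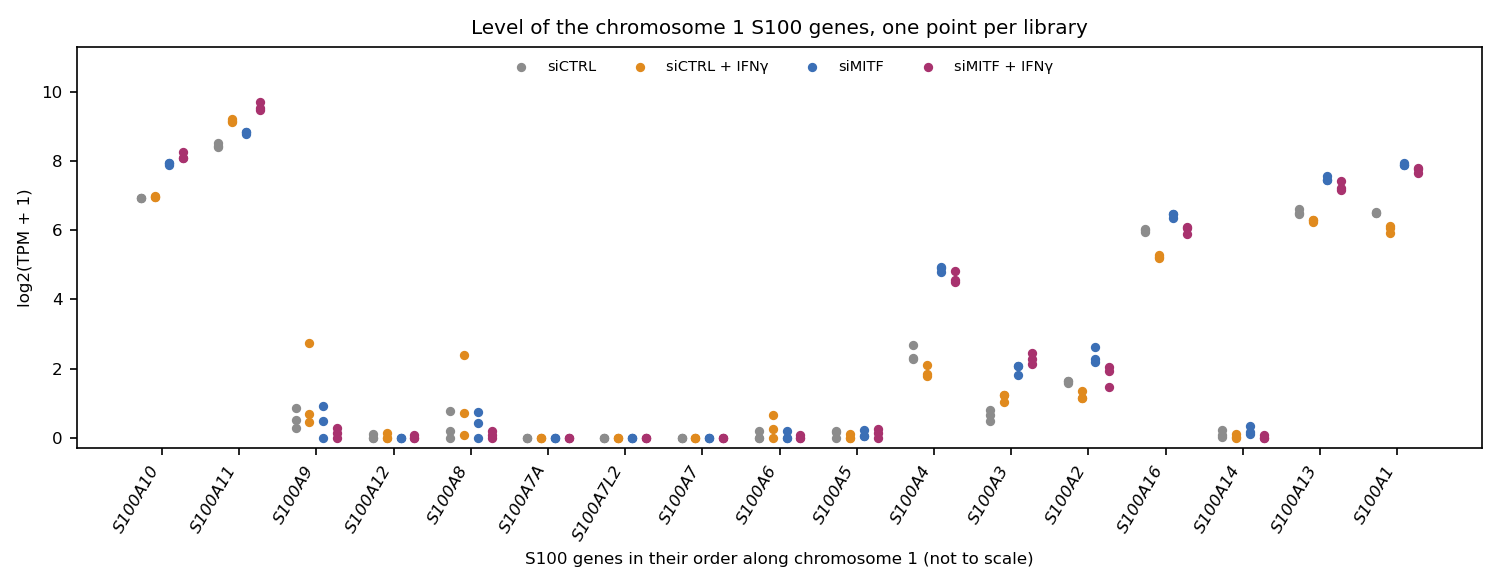
Level of the 17 S100 genes of chromosome 1 as log2(TPM + 1), 1 point per library, in their order along the chromosome and not to scale. Expressed genes stand at both ends and around S100A4, with S100A6, S100A5 and S100A14 near 0 between them and S100A8 and S100A9 above 2 on this scale in only 1 library.

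Some neighbours cannot be fully separated. S100A1 and S100A13 lie on opposite strands and share 235 exon bases in GENCODE 44, 7.76% of those of S100A1 and 10.6% of those of S100A13. The library kit does not mark strand, so reads from these bases could belong to either gene. S100A13 also shares 536 exon bases (24.2%) with ENSG00000271853 on the same strand. S100A1 shares 320 (10.6%) with ENSG00000272030 on the opposite strand. Neither of these IDs was listed in the data, and the part of their reads in the values of S100A13 and S100A1 was not tested. The ratio of S100A1 to S100A13 was 0.984 ± 0.0443 in siCTRL, 0.852 ± 0.0771 with IFNγ added, 1.34 ± 0.0409 in siMITF cells and 1.38 ± 0.0893 in siMITF cells with IFNγ, so their values did not keep a fixed proportion. The S100A3 gene (153547329 to 153549258) lies within the span of S100A4. The ratio of S100A4 to S100A3, taken per library and averaged within each condition, ran from 2.24 to 9.75. In single libraries it ran from 1.81 to 13.6.

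The sequence before the start sites was read for 9 members, in 13 windows of 250 bases from RefSeq on GRCh38.p14, S100B having no entry. The windows of S100A4 and S100A10 are shown as those of the member with the largest siMITF difference and of one whose level was nearly 2-fold higher with siMITF and little different with IFNγ in siCTRL cells, and those of S100A3 and S100A2 because they hold motif matches, written in capitals. Each reads 5′ to 3′ on the gene's minus strand and ends at the base before the start.
S100A4 (chr1:153545807-153546056): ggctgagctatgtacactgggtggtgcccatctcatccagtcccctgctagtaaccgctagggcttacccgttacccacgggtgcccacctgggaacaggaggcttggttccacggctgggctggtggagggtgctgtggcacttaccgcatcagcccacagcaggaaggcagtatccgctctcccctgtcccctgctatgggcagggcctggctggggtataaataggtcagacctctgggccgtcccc
S100A10 (chr1:151993860-151994109): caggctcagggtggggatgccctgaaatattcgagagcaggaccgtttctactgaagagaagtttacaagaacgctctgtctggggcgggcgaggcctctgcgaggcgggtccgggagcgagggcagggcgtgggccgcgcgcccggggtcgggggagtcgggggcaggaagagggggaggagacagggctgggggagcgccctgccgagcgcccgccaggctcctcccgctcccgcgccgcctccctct
S100A3 (chr1:153549259-153549508): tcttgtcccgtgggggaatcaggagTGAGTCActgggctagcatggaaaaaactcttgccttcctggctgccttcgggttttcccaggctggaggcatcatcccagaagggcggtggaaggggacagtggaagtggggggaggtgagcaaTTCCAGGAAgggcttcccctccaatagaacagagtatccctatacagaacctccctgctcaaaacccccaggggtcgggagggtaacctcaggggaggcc
S100A2 (chr1:153565845-153566094): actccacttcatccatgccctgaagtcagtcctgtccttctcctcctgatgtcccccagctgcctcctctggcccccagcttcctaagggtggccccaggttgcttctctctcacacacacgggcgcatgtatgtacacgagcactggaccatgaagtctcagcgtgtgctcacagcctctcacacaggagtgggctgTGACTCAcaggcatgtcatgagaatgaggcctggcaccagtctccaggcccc

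In all 6 motifs were searched on both strands, and their shares over all 35116 promoter windows of that length are given for scale. The E-box CACGTG (6.34% of windows) and the M-box TCATGTG (2.52%), letters that MITF is known to bind, matched in none of the members' windows, which says nothing of binding elsewhere or to other letters. The AP-1 motif TGANTCA (6.57%) matched in S100A3, beginning 225 bases before the start, and in S100A2, beginning 52 bases before it. The interferon-activated motif TTCNNNGAA (6.57%) matched in S100A3 at 100 bases before the start, and the interferon-stimulated response element (3.02%) in none. The TEAD motif GGAATG (11.9%) matched in S100A16 at 247 bases. The windows also differed in CpG dinucleotides, with 24 in S100A10 and 24 in S100A6, 15 in S100A11, 7 in S100A4, 6 in S100A1 and 4 in S100A3, beside a median of 11 over all windows. The windows with the most CpG thus belonged to the second most abundant member of siCTRL cells and to the one listed near 0.

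Of 22 genes of proteins that S100 proteins bind 20 were tested, and 5 were higher and 2 lower with siMITF without IFNγ, 4 higher and 3 lower with IFNγ, shares close to the 21.0% and 13.8%, and the 18.4% and 14.7%, of all tested IDs. Their median log2 fold change without IFNγ was 0.07, against 0.06 over all tested IDs. IFNγ gave 1 higher and 1 lower in siCTRL cells, and 1 higher and 3 lower in siMITF cells, where 7.99% and 12.2% of all tested IDs were called. ANXA1, a partner of S100A11, stood at 12.9, 22.9 and 13.6 TPM with siCTRL and at 254, 248 and 232 TPM with siMITF (log2 fold change 3.86 ± 0.20 SE, adjusted p = 2.1e-08). PPFIBP1, a liprin that binds S100A4, had 1.45 ± 0.26 SE (adjusted p = 0.00101) and AHNAK, which binds S100A10 with annexin A2, 1.02 ± 0.25 SE (adjusted p = 0.00643). ANXA2, singled out after its values were seen as the partner of S100A10, was 938 ± 85.6 TPM with siCTRL and 1184 ± 20.6 TPM with siMITF (log2 fold change 0.34, adjusted p = 0.00337), a smaller relative difference than the 0.99 of S100A10.

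Other calcium sensors and the genes beside the S100 loci were taken as further lists. Of 29 EF-hand genes outside the family 26 were tested, and 7 were higher and 5 lower with siMITF without IFNγ, 6 and 6 with it, none by 2-fold, beside the same shares over all tested IDs. Their median log2 fold change was -0.05 without IFNγ. Of 19 genes neighbouring the S100 loci 13 were tested, and 5 were higher and none lower with siMITF without IFNγ, 2 higher and none lower with it. Over all tested IDs 21.0% were higher and 13.8% lower without IFNγ, and 18.4% and 14.7% with it. The neighbours' median log2 fold change was 0.271 without IFNγ and 0.095 with it, against 0.063 and 0.026 over all tested IDs. In siMITF cells 4 of these 13 neighbours fell with IFNγ and none rose, beside 12.2% of all tested IDs called lower, or 24.5% in the blocked fit. NUCB1, a calcium-binding protein of the Golgi, was the 1 EF-hand gene to pass 2-fold with IFNγ (log2 fold change 1.48 ± 0.19 SE in siCTRL and 1.61 ± 0.19 SE in siMITF cells). None of the 7 S100-fused genes of the skin, such as FLG, reached the filter.

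For each tested member the genes with the most similar pattern were found as those with the smallest root mean square difference of log2(TPM + 1), each gene centred on its mean over the 12 libraries. The nearest to S100A4 was MIA (0.213 on the log2 scale), a secreted protein measured like S100B as a melanoma serum marker, at 12.2, 11.5, 77.5 and 70.1 TPM on average in siCTRL, siCTRL + IFNγ, siMITF and siMITF + IFNγ cells. The nearest to S100B was NECTIN2 (0.0870), a cell adhesion molecule, at 19.2, 29.1, 39.9 and 48.5 TPM. S100A10 lay nearest to GLB1L3 (0.0920), at 1.60, 1.87, 4.68 and 5.225 TPM, a low gene whose change the TPM + 1 scale understates. PLAT (0.0990), the tissue plasminogen activator, followed at 85.4, 86.4, 181 and 187 TPM. S100A11 lay nearest to PMAIP1 (0.0930), S100A13 to PMP22 (0.0990), S100A1 to MEGF9 (0.130), S100A16 to RNF125 (0.0930), S100A2 to RHD (0.132) and S100A3 to ZNF467 (0.166). S100A16 had NES, the neural progenitor filament nestin, as the second nearest (0.119), at 68.9, 48.9, 102 and 78.5 TPM. The third nearest to S100A2 was LYZ (0.155), the marker that makes up most of the leukocyte sum, at 2.44, 1.46, 4.74 and 3.03 TPM. The likeness is a description over libraries that share their conditions.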

How the data were processed

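Per the methods, the authors trimmed reads with Trimmomatic 0.39 and quantified them with kallisto on the Ensembl GRCh38 transcriptome; the release and the tool that summed transcripts to genes are not given in the sources used here. The deposited table holds gene-level TPM for each library. Symbols and positions came from GENCODE 44 (GRCh38). TPM were analysed as log2(TPM + 1) with limma 3.58.1 in R 4.3.3, over IDs whose mean reached 2 TPM in 1 or more conditions, with a trended prior variance and Benjamini-Hochberg adjustment over all of them, and the script was tested on simulated data. Tables and figures used Python 3.11.15, pandas 2.3.3, numpy 2.4.6 and matplotlib 3.10.9.

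Labels give replicate numbers only; the methods state independent biological replicates. The 18 same-number pairs of libraries deviated together from their condition means (correlations of 0.10 to 0.63, median 0.28; 36 other pairs, median -0.20), so the pairing, found in the data, was used as a replicate block in an alternative. Deviations from a condition mean cancel within that condition, so the negative median of the other pairs is not independent of the same-number one. The members, lists and motifs were chosen with earlier results of these data known. Named genes were the members, MITF, list genes called at least 2-fold, other S100 genes reaching 2 TPM in a condition, and the 3 genes most like each member. Further alternatives were other pseudocounts, filters, scalings, moderation, conditions in the fit, summing by symbol, fold changes from mean TPM, a stricter threshold and each library left out.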

Additional observations from a re-analysis of the deposited data

How the results depend on the processing

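The siMITF calls of the 9 tested members held in every alternative in which the member was tested, at an adjusted p under 0.05; at under 0.01, S100A2 with IFNγ was lost (log2 fold change 0.61, adjusted p = 0.0103). The count of at least 2-fold, S100A3 included, was 3 to 5 around 4 without IFNγ and 4 to 5 around 5 with it. S100A3 entered the test only through its level in the siMITF conditions. Leaving it aside, the main counts were 3 of 8 without IFNγ and 4 of 8 with it. The 7 members called for IFNγ in siCTRL cells became 4 when the fit held only the conditions compared, where S100A3 was not tested. They also became 4 at an adjusted p under 0.01, and 4 to 8 with 1 library left out, the lowest without siCTRL replicate 2. Of the 7, 1 (S100A3) passed 2-fold with a pseudocount of 0.1. With no filter on low values the 7 became 5, S100A4 and S100A13 being lost. The 5 called for IFNγ in siMITF cells became 4 with no filter, S100A2 being lost, and 3 with only the conditions compared and at an adjusted p under 0.01, and 3 to 5 with 1 library left out, the lowest without siMITF replicate 1 or 2. For the interaction, 1 member (S100A16) was called under quantile normalization, with mitochondrial genes removed and with the replicate block. The block changed no member's call other than this and those of S100A1 and S100A13 for IFNγ in siMITF cells. Quantile normalization turned the sign of the uncalled combination value of S100A2 (-0.019) and interaction of S100A3 (0.057). With 1 library left out, signs turned for the uncalled combination value of S100A16 (-0.013 to 0.085) and the uncalled interactions of S100A2 (-0.243 to 0.054), S100A11 (-0.039 to 0.086) and S100A13 (-0.023 to 0.107). Where a count fell with fewer libraries or a stricter threshold, the alternative itself tests with less data or a lower limit; the causes of the other shifts were not tested. Fitting only the conditions compared gives no interaction. S100A2 and S100A3 were not tested at a mean of at least 5 TPM. For IFNγ in siCTRL cells S100A3 was also not tested with only the conditions compared. Depth is unknown, so values of S100A2, S100A3 and S100A6 carry no counting interval.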
